A study of Homo sapiens with 24 samples.

Results

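MGMT and 6 genes that share its pathway, ALKBH2, ALKBH3, MPG, MSH3, MSH6 and PMS2, were followed through every RNA sequencing library of the Δ133p53 cell lines. They are 7 of the 60563 named genes of the count table, and they were taken by symbol in all 24 libraries. MGMT was chosen by its reads in these same libraries, so its levels are described without a test, and the other 6 members were chosen by their role in the repair of alkylated DNA. The cells are H1299, a human non-small cell lung cancer line that the paper treats as lacking p53. Vector control cells were compared with clonal lines stably expressing an added Δ133p53 isoform, namely Δ133p53α in 3 clones (Δ133p53α1, Δ133p53α2 and Δ133p53α8) and Δ133p53β in 2 clones (Δ133p53β5 and Δ133p53β10). Each line gave 4 libraries. Each clone is a single line grown from H1299, so the effect of the isoform and the history of the clone cannot be told apart within 1 clone. Tests between the isoforms compare 2 clones with 3 and take their error from the spread between libraries of a line. Their p-values leave out the spread between clones and do not measure an effect of the isoform.

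Total counts lay between 21531599 and 25381731 per library. The epithelial markers KRT8 and KRT18 and the mesenchymal marker VIM were high in every line, the epithelial markers EPCAM, CDH1 and KRT19 had at most 5 reads in any library, and PTPRC of blood cells had 0 reads in every library. By their titles 3 libraries belong to Δ133p53β5 and 5 to Δ133p53β10, whereas the table names 4 of each. The library in question was counted as replicate 4 of Δ133p53β5. The libraries also formed 2 sets of 12 that cut across the lines, defined by whether longer genes were high or low in a library relative to the average over all libraries. The rank correlation of this deviation with gene length was from 0.187 to 0.304 in the positive set and from -0.269 to -0.117 in the negative set. Control, Δ133p53α2 and Δ133p53α8 had 3 positive libraries and 1 negative, and Δ133p53α1, Δ133p53β5 and Δ133p53β10 had 1 positive and 3 negative, so a line and its set are partly confounded. Each test is therefore given for a fit of the lines alone and for a fit that also holds the set.

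Alkylating agents, including the drug temozolomide, place methyl groups on DNA bases. MGMT takes the methyl group from the O6 position of guanine onto itself and is used up in doing so, ALKBH2 and ALKBH3 oxidize methyl groups off the ring nitrogens of adenine and cytosine, and MPG cuts out alkylated purines to begin base excision repair. Mismatch repair recognizes the pair that O6-methylguanine forms with thymine through a complex that holds MSH6, and small loops through one that holds MSH3, and PMS2 is the endonuclease that acts after them. A cell that lacks MGMT is known to be sensitive to such agents as long as its mismatch repair is intact, and in tumors MGMT is known to be silenced by methylation of the CpG island at its promoter.

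MGMT (ENSG00000170430) is encoded on chromosome 10 from 129467190 to 129770983 on the plus strand (GRCh38). The stretch of RefSeq sequence just before its first annotated start, chr10:129466991-129467189 on the plus strand of GRCh38.p14, is shown because it is the CpG-rich end of the gene. Capitals mark its 29 CpG dinucleotides.
MGMT promoter: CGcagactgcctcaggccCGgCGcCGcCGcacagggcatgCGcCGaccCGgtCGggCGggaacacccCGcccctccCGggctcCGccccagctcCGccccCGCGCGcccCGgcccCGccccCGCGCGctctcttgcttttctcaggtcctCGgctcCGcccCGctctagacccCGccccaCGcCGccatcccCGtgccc
This stretch is not transcribed in the annotation, and its 199 bases hold 7 copies of GGGCGG, the GC box, counted on both strands. In the full RefSeq window of 300 bases, which runs from 250 bases before the start to 50 after it, MGMT had 45 CpG dinucleotides and 8 GC boxes. As many CpG dinucleotides were found in 3.48% and as many GC boxes in 0.812% of 35116 such windows. The windows of the other 6 members held from 21 (ALKBH3) to 39 (MSH6) CpG dinucleotides, against a median of 14 over all windows, and ALKBH3 alone of the members had no GC box. DNA methylation was not measured in these data, so the state of these CpG dinucleotides was not tested.

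MGMT transcripts were found in control cells, were lower in Δ133p53α8 and were at the limit of detection in the other 4 clones. The control libraries had 123, 54, 85 and 51 MGMT reads. The Δ133p53α8 libraries had 5, 19, 11 and 6. Every control library was above every Δ133p53α8 library, and every Δ133p53α8 library was above every library of the other clones.

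In Δ133p53α1, Δ133p53α2, Δ133p53β5 and Δ133p53β10 together, 10 of 16 libraries had 0 MGMT reads and 6 had 1 read. These 6 reads stood among 356732494 counted reads, whereas the 4 Δ133p53α8 libraries had 41 MGMT reads among 87155620. Both isoforms are thus represented among the clones at the limit of detection.

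On the scale of CPM (reads of a gene per 1000000 reads of the library, scaled for library composition), the mean MGMT level was 3.09 ± 1.18 (SD, n = 4) in control and 0.452 ± 0.307 (SD, n = 4) in Δ133p53α8, a ratio of 6.84. The 95% exact Poisson intervals of the pooled reads, which cover counting error only, were 2.80 to 3.50 CPM in control and 0.317 to 0.599 CPM in Δ133p53α8. Setting the other clones at 3 reads per library, the level that a count of 0 allows, the control mean was 20.4 times the MGMT level of Δ133p53α1. The same ratio was 22.7 times for Δ133p53α2, 22.3 times for Δ133p53β5 and 22.4 times for Δ133p53β10. Against the same floor, the mean of Δ133p53α8 was 2.98 to 3.32 times the level of each other clone. These ratios bound the level of the other clones only. They take the means of control and Δ133p53α8 as measured, and 1 library held 19 of the 41 Δ133p53α8 reads.

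The higher of the MGMT values in control and in Δ133p53α8 both came from the negative set. Control replicate 1, its only negative library, had 4.72 CPM against 2.16 to 3.19 in the other 3, and Δ133p53α8 replicate 2, also the only negative library of its line, had 0.882 against 0.212 to 0.464. Within the positive set, MGMT was 8.26-fold lower in Δ133p53α8 than in control, and within the negative set, with 1 library of each line, it was 5.36-fold lower. In bulk RNA, fewer cells with MGMT transcripts and fewer transcripts per cell cannot be told apart, so the reads of Δ133p53α8 do not show whether all of its cells carry them.

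The protein-coding gene that follows MGMT on chromosome 10, EBF3, moved the opposite way. EBF3 encodes a transcription factor and starts 64250 bases beyond the end of MGMT. It had 12, 17, 11 and 13 reads in control libraries and between 22 and 99 in the clone libraries, and the groups did not overlap. How many of all genes separate in this way was not counted. The mean EBF3 level was 0.537 ± 0.137 CPM (SD, n = 4) in control and from 2.38 (Δ133p53α1) to 2.83 (Δ133p53β5) in the clones.

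EBF3 rose in all 5 clones. The log2 fold change was from 2.15 (Δ133p53α1, SE 0.412, adjusted p = 0.00252) to 2.39 (Δ133p53β5, SE 0.413, adjusted p = 0.000541) by edgeR's quasi-likelihood test with Benjamini-Hochberg adjustment over 17990 genes. The comparisons share the 4 control libraries. With the set, the log2 fold change was from 2.25 (Δ133p53α2) to 2.82 (Δ133p53β5). Between Δ133p53α8 and the other Δ133p53α clones, which MGMT set apart, the log2 difference of EBF3 was 0.12 (95% interval -0.55 to 0.80), and with the set -0.09.

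The other flanking genes gave no such pattern. MKI67, a marker of dividing cells that ends 1340767 bases before MGMT, ranged over line means from 190 ± 74.2 CPM (SD, n = 4) in Δ133p53β5 to 343 ± 133 in Δ133p53α8, and its smallest adjusted p against control was 0.243. PTPRE and C10orf143 had at most 3 reads in any library and were not tested.

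The 5 tested genes whose log2 CPM followed that of MGMT most closely over the 24 libraries were IL13RA2 (Pearson r = 0.939), IHO1 (0.915), LPCAT2 (0.902), LAMC3 (0.894) and GPRC5B (0.887). The 24 points share 6 lines, so these values describe a ranking of lines more than of single libraries. IL13RA2, a receptor for interleukin 13, had 265 to 670 reads in control, 89 to 161 in Δ133p53α8 and at most 8 in the other clones. LPCAT2, an enzyme of phospholipid remodeling, had 13 to 20 reads in control, 4 to 14 in Δ133p53α8 and at most 2 elsewhere. IHO1, which is known for its part in meiotic recombination, had 13 to 42, 5 to 9 and at most 2 reads. LAMC3, a laminin chain, and GPRC5B, an orphan receptor, had reads in every clone, and their levels were 0.739 and 4.66 CPM in Δ133p53α1 against 1.23 and 5.26 in Δ133p53α8.

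Transcripts of the other 6 members were found in every library, with between 211 (PMS2) and 5325 (MSH6) reads. Divided by the length of the main transcript, the control levels rose in the order MGMT, PMS2, MSH3, ALKBH3, ALKBH2, MPG and MSH6, from 0.661 ± 0.252 (SD, n = 4) CPM per kilobase in MGMT to 43.96 ± 8.48 in MSH6. Library ranges of neighbors in this order overlapped for PMS2 and MSH3, for ALKBH2 and MPG, and for MPG and MSH6, and the other neighbors were separate. MGMT was thus the least abundant of the members already in control, and PMS2, the next in order, stood at 3.98 ± 1.40 CPM per kilobase (SD, n = 4).

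None of the 6 members passed the test against control in any clone, with the lines alone in the fit. Of 30 values (6 genes in 5 clones) 0 had an adjusted p under 0.05 by edgeR, 1 had an unadjusted p under 0.05, and DESeq2 and limma voom also called 0. Over all tested genes, the background in Δ133p53α1 was 2.04% risen and 2.71% fallen. It was 2.16% and 2.96% for Δ133p53α2, 1.90% and 2.48% for Δ133p53α8, then 3.90% and 5.62% for Δ133p53β5, with 4.82% and 5.08% for Δ133p53β10. The largest of the 30 log2 fold changes was 0.67 (ALKBH2 in Δ133p53α1, SE 0.341, 95% interval -0.03 to 1.38). None of the 6 differed between the means of the Δ133p53β and the Δ133p53α clones, among the 5 clones, or between Δ133p53α8 and the other Δ133p53α clones, where 5.43%, 3.76% and 0.272% of all tested genes passed.

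Every one of these 6 genes differed between the 2 sets of libraries. In all 6 lines, the mean level in the negative set was above that in the positive set for MPG (1.70 to 3.67 times), ALKBH2 (1.20 to 2.68 times) and ALKBH3 (1.06 to 2.00 times), and below it for MSH3 (0.485 to 0.761 times), MSH6 (0.577 to 0.888 times) and PMS2 (0.499 to 0.775 times). The first group has main transcripts of 1036, 1180 and 1544 bases and the second of 4265 to 5093 bases. The sets were defined by the trend with gene length over all genes, so these ratios are a description and not a test. That trend does not fix the direction of a single gene. MGMT has a main transcript of 4678 bases but was higher in the negative set, 1.85 times in control and 2.85 times in Δ133p53α8. The ratios of the 6 genes show how their levels within a line went with the set.

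With the set in the fit, MPG passed and the other 5 did not. Of the 30 values, 2 passed, both of MPG, whereas over all tested genes the share that passed was 6.16% for Δ133p53α1, 12.1% for Δ133p53α2 and 10.1% for Δ133p53α8. The share was 15.8% for Δ133p53β5 and 13.6% for Δ133p53β10. In each Δ133p53β clone 1 of the 6 members passed, near that share, so the calls do not set the members apart from other genes. MPG was also the 1 member of the 6 to pass between the isoforms (10.2% of all tested genes) and among the clones (7.69%), and 0 passed between Δ133p53α8 and the other Δ133p53α clones (0.445%).

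**Figure D1:**
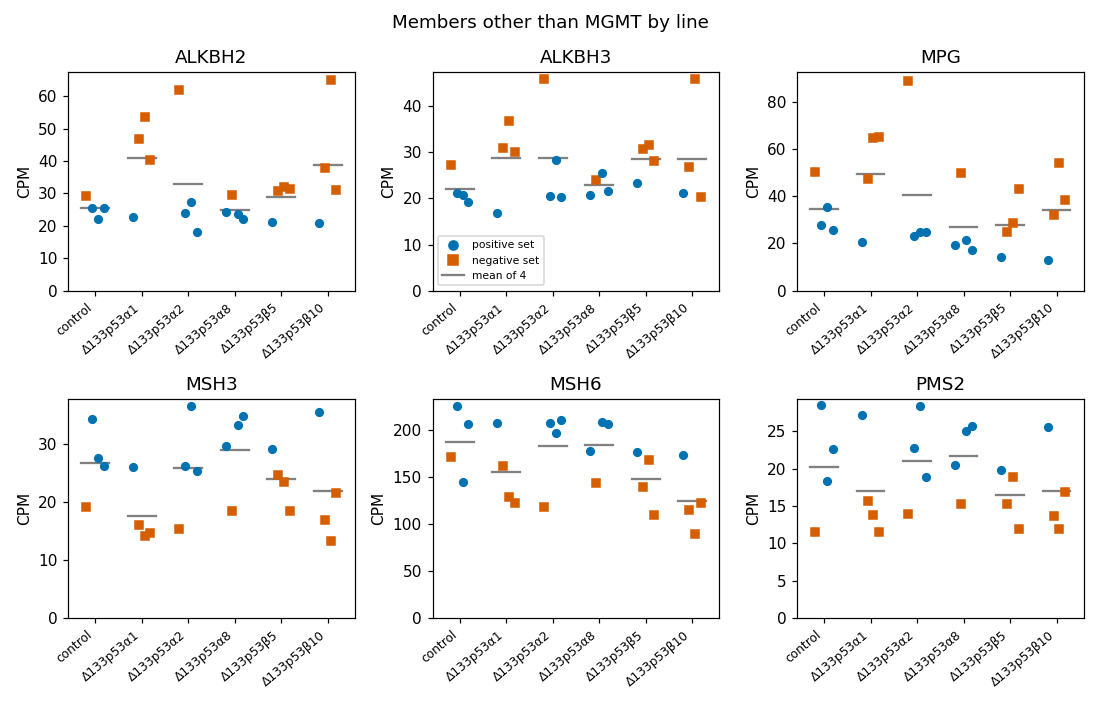
CPM of the 6 members other than MGMT in each library, by line, on linear axes from 0. Circles are libraries of the positive set, squares of the negative set and grey bars means of 4 libraries. In each line the mean of the negative libraries is above that of the positive ones for ALKBH2, ALKBH3 and MPG and below it for MSH3, MSH6 and PMS2, while single libraries of the sets overlap in some lines, as for MSH6 in control.

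MPG (ENSG00000103152, chromosome 16 from 77007 to 85851, plus strand) is the glycosylase that removes alkylated purines. Its mean level was lower in both Δ133p53β clones than in control once libraries of the same set were compared. In the positive set, the 3 control libraries had 27.9, 35.2 and 25.6 CPM, and the single libraries of Δ133p53β5 and Δ133p53β10 had 14.2 and 13.0. The 7 positive libraries of the Δ133p53α clones lay between 17.0 and 24.9 (median 21.6). The 3 groups did not overlap in this set, but the Δ133p53β group held a single library of each clone. The share of all genes that separate in this way was not counted.

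In the negative set, the single control library had 50.3 CPM. The Δ133p53β5 libraries had 24.7, 28.8 and 43.0 and the Δ133p53β10 libraries 32.0, 54.0 and 38.2, and the 5 Δ133p53α libraries lay between 47.3 and 88.9 (median 64.8). Here 1 of 6 Δ133p53β libraries was above control and above the lowest Δ133p53α library. Libraries of this set were not fully matched, as their rank correlations with gene length differed. These were -0.117 in control, -0.253 to -0.142 in Δ133p53β5, -0.260 to -0.172 in Δ133p53β10 and -0.269 to -0.216 in the Δ133p53α clones. Their part in the MPG values was not tested.

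Without the set, the log2 fold change of MPG was -0.33 (SE 0.493, adjusted p = 0.707) in Δ133p53β5 and -0.02 (SE 0.492, adjusted p = 0.982) in Δ133p53β10 by edgeR. With it, MPG was lower by -1.09 (SE 0.222, adjusted p = 0.00141) in Δ133p53β5 and by -0.85 (SE 0.224, adjusted p = 0.0127) in Δ133p53β10. The difference between the means of the Δ133p53β and Δ133p53α clones was -0.29 (SE 0.321, adjusted p = 0.671) without the set and -0.70 (SE 0.142, adjusted p = 0.00201) with it. The adjusted p of the difference among the 5 clones went from 0.580 to 0.00970.

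The MPG calls of Δ133p53β5 and of the difference between isoforms held with the set when each library was left out, with adjusted p from 0.000508 to 0.00627 and from 0.000329 to 0.0125. The call of Δ133p53β10 was lost without its replicate 1, its only positive library (adjusted p = 0.0760). In Δ133p53α8, MPG gave a log2 fold change of -0.49 (95% interval -0.92 to -0.07, adjusted p = 0.140) with the set, and passed only without control replicate 1 (adjusted p = 0.0443). The end of MPG overlaps NPRL3 on the other strand, and whether the counts were made with regard to strand is not given in the sources used here.

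**Figure D2:**
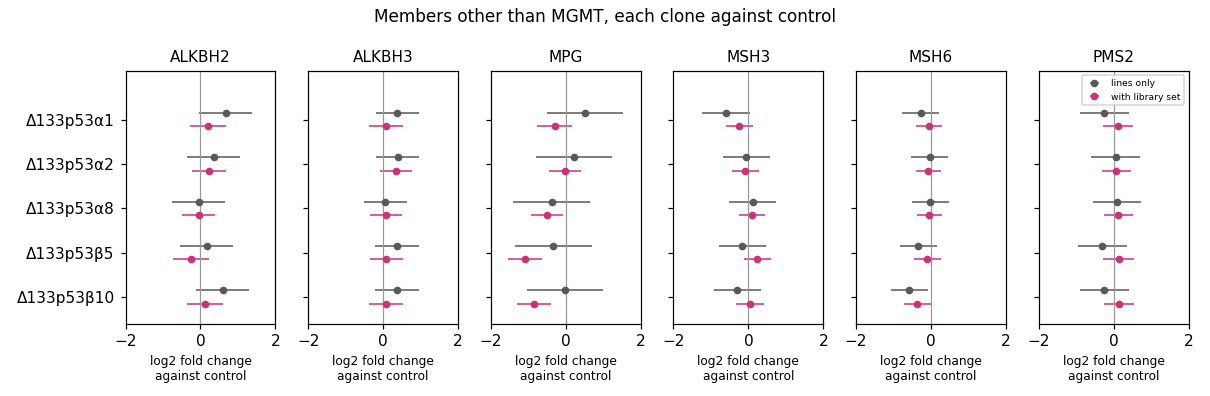
Log2 fold changes of the 6 members other than MGMT in each clone against control, from the fit of lines alone (grey) and from the fit that also holds the set of libraries (pink), with 95% intervals as bars. With the set, the intervals of MPG in Δ133p53β5 and Δ133p53β10 lie below 0 and intervals are narrower for every gene.

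ALKBH2 (ENSG00000189046, chromosome 12 from 109088188 to 109093631, minus strand), the dioxygenase that repairs double-stranded DNA, had 25.6 ± 2.93 CPM (SD, n = 4) in control. Line means in the clones ran from 24.8 ± 3.21 in Δ133p53α8 to 40.8 ± 13.2 in Δ133p53α1. The highest single values, 65.2 in Δ133p53β10 replicate 3 and 62.0 in Δ133p53α2 replicate 1, were both in the negative set. With the set in the fit, its log2 fold changes lay between -0.26 and 0.22, with adjusted p of 0.493 or more.

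ALKBH3 (ENSG00000166199, chromosome 11 from 43880811 to 43920274, plus strand), which acts on single-stranded DNA and RNA with the helicase ASCC3, had line means from 22.0 ± 3.52 CPM (SD, n = 4) in control to 28.8 ± 12.1 in Δ133p53α2. All 5 fold changes were above 0, between 0.06 and 0.39 on the log2 scale (adjusted p of 0.362 or more), and with the set between 0.06 and 0.34 (adjusted p of 0.316 or more). A long noncoding gene without a symbol (ENSG00000246250) starts 105 bases away on the other strand, had between 3 and 91 reads and did not pass in any clone.

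MSH6 (ENSG00000116062, chromosome 2 from 47695530 to 47810063 over all annotated transcripts, plus strand), which binds mismatched bases, was the member nearest to a difference in the fit of lines alone. Control libraries had 171, 227, 145 and 207 CPM, and the Δ133p53β10 libraries 173, 115, 89.6 and 122. The highest Δ133p53β10 value stood above 2 of the 4 control values, and the other 3 were below every control library. The log2 fold change was -0.58 (SE 0.238, 95% interval -1.08 to -0.09), with an adjusted p of 0.119 by edgeR. It passed when Δ133p53β10 replicate 1 was left out (adjusted p = 0.0371). With the set in the fit, the log2 fold change was -0.37 (SE 0.173, adjusted p = 0.169). MSH6 was below control in all 5 clones in both fits, without passing in any. Its annotated span overlaps FBXO11 on the other strand.

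MSH3 (ENSG00000113318, chromosome 5 from 80654652 to 80876815, plus strand) ranged from 17.6 ± 5.63 CPM (SD, n = 4) in Δ133p53α1 to 29.0 ± 7.39 in Δ133p53α8, against 26.7 ± 6.20 in control. Its largest log2 fold change was -0.60 in Δ133p53α1 (SE 0.305, 95% interval -1.23 to 0.03, adjusted p = 0.210), and with the set this was -0.24 (95% interval -0.61 to 0.13, adjusted p = 0.473).

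PMS2 (ENSG00000122512, chromosome 7 from 5970925 to 6009130, minus strand), the endonuclease of mismatch repair, had line means from 16.5 ± 3.59 CPM (SD, n = 4) in Δ133p53β5 to 21.6 ± 4.81 in Δ133p53α8, against 20.3 ± 7.13 in control. With the set, its log2 fold changes lay between 0.07 and 0.14 in the 5 clones, and their 95% intervals all held 0, with the widest in Δ133p53β5 (-0.27 to 0.55). PMS2 has near-identical pseudogene copies, so its counts are uncertain. AIMP2, a scaffold of the aminoacyl-tRNA synthetases that starts 223 bases away on the other strand, rose in Δ133p53α1 (log2 fold change 0.76, SE 0.211, adjusted p = 0.0374), Δ133p53β5 (0.84, SE 0.211, adjusted p = 0.0126) and Δ133p53β10 (0.68, SE 0.211, adjusted p = 0.0426). With the set, AIMP2 passed in Δ133p53β5 (adjusted p = 0.0117) and not in Δ133p53α1 (0.0554) or Δ133p53β10 (0.0692). With the lines alone, leaving out 1 library lost the AIMP2 call in 12 of 24 fits for Δ133p53β10 (up to 0.186, without its replicate 3), in 6 of 24 for Δ133p53α1 (up to 0.174, without its replicate 3) and in 1 for Δ133p53β5 (0.0550, without control replicate 3).

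Around the members, 5 lists of pathway genes were counted, leaving MGMT out. Of 21 mismatch repair genes reported, 0 passed in any clone by edgeR with the lines alone, and 10 of their 105 values against control had an unadjusted p under 0.05, against 21.7% of the values of all tested genes. DESeq2 passed 3 of the 105 values (RFC2, RPA2 and RPA3) and limma voom 1 (RPA3), against 10.5% and 6.74% of the values of all tested genes. The median log2 fold change of the list was from -0.07 to 0.21 over the clones, against -0.05 to 0.03 over all tested genes.

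RPA3, the smallest subunit of the protein that coats single-stranded DNA, was named after its values were seen. With the set in the fit, its log2 fold change was 0.70 (SE 0.183, adjusted p = 0.0132) in Δ133p53α2 and 0.73 (SE 0.192, adjusted p = 0.0117) in Δ133p53β10 by edgeR. Without the set, the values were 0.65 (SE 0.394, adjusted p = 0.466) and 1.22 (SE 0.398, adjusted p = 0.0543). The call in Δ133p53α2 was lost without its replicate 4 (adjusted p = 0.0601). Over all tested genes, 12.1% passed with the set in Δ133p53α2 and 13.6% in Δ133p53β10.

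Of the 9 direct reversal genes and helpers other than MGMT, 1 rose in Δ133p53β5 and in Δ133p53β10, and 0 passed in the Δ133p53α clones. It was RNF113A, a ubiquitin ligase that brings the ASCC helicase complex to alkylated sites. Over all tested genes, 3.90% rose in Δ133p53β5 and 4.82% in Δ133p53β10. In the Δ133p53α clones, from 1.90% to 2.16% rose and from 2.48% to 2.96% fell, so 0 passing there does not set the list apart. RNF113A had 9.14 ± 1.87 CPM (SD, n = 4) in control, 17.9 ± 3.20 in Δ133p53β5 and 18.2 ± 9.86 in Δ133p53β10. Its log2 fold change was 0.97 (SE 0.300, adjusted p = 0.0440) and 0.99 (SE 0.300, adjusted p = 0.0398), and between the isoforms 0.68 (SE 0.195, adjusted p = 0.0369). With the set, the call in Δ133p53β10 was lost (adjusted p = 0.0536). Leaving out 1 library lost the call in 11 of 24 fits for Δ133p53β5 and in 7 of 24 for Δ133p53β10, of which the highest adjusted p was 0.248, without Δ133p53β10 replicate 3. The call between the isoforms was lost in 11 of 24 such fits (up to 0.114, without Δ133p53β10 replicate 3), and with the set in 3 of 24 (up to 0.0919, without Δ133p53β5 replicate 1). ALKBH1, a dioxygenase related to ALKBH2 and named after its values were seen, gave a log2 fold change of 0.55 (SE 0.181, adjusted p = 0.0596) in Δ133p53β5, and passed there by DESeq2 and with the set (0.60, SE 0.179, adjusted p = 0.0249). With the set its call was lost in 4 of 24 fits that left out 1 library (up to 0.0805, without Δ133p53β5 replicate 2), and 15.8% of all tested genes passed in Δ133p53β5. Of 10 other ways of processing, 4 lost the call of RNF113A in Δ133p53β5 and between the isoforms, and 5 that in Δ133p53β10. The median log2 fold change of the list ran from -0.03 to 0.39.

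Of 23 base excision repair genes, 0 passed in any clone by edgeR with the lines alone, 12 of 115 values had an unadjusted p under 0.05 (21.7% over all tested genes), and DESeq2 passed 3 values (APTX, FEN1 and POLB, 10.5% over all tested genes) and limma voom 0 (6.74%). The list's median log2 fold change was from 0.05 to 0.41. With the set, NTHL1, a glycosylase for oxidized pyrimidines, fell in Δ133p53α8 and Δ133p53β5 beside MPG in both Δ133p53β clones, and the medians were from 0.00 to 0.11. Over all tested genes, 10.1% passed with the set in Δ133p53α8, 15.8% in Δ133p53β5 and 13.6% in Δ133p53β10. NTHL1 was named after its values were seen, and leaving out 1 library lost its call in 5 of 24 fits for Δ133p53α8 (up to 0.114, without its replicate 4) and 2 for Δ133p53β5 (up to 0.0649, without its replicate 3).

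Of 12 replication checkpoint genes, 1 rose in Δ133p53β5, 2 in Δ133p53β10 and 0 in the Δ133p53α clones, and 0 fell, where 3.90% and 4.82% of all tested genes rose in the Δ133p53β clones. From 1.90% to 2.16% of all tested genes rose in the Δ133p53α clones, and from 2.48% (Δ133p53α8) to 5.62% (Δ133p53β5) fell over the 5 clones. CHEK1, the checkpoint kinase, was the gene that rose in both, and it was named after its values were seen. It had 55.6 ± 8.81 CPM (SD, n = 4) in control, 78.6 ± 2.86 in Δ133p53β5 and 77.6 ± 5.39 in Δ133p53β10. With the set, CHEK1 also passed in Δ133p53α2 (log2 fold change 0.40, adjusted p = 0.0362) and Δ133p53α8 (0.44, adjusted p = 0.02503), where 12.1% and 10.1% of all tested genes passed. Leaving out 1 library lost these calls in 9 of 24 and 4 of 24 fits. The difference of CHEK1 between the isoforms did not pass in either fit (0.14, adjusted p = 0.450, and 0.17, adjusted p = 0.234 with the set). With the lines alone, leaving out 1 library lost the call of CHEK1 in 3 of 24 fits for Δ133p53β5 (up to 0.0811) and in 7 of 24 for Δ133p53β10 (up to 0.10), both highest without control replicate 3. ATRIP, the partner of the kinase ATR, rose in Δ133p53β10 with a log2 fold change of 1.07 (SE 0.297, adjusted p = 0.0236), from 16.6 ± 3.61 to 35.0 ± 15.2 CPM (SD, n = 4). Its call was lost without Δ133p53β10 replicate 3 (adjusted p = 0.131) or without control replicate 3 (0.0922). With the set, the log2 fold change of ATRIP was 0.79 (adjusted p = 0.0326), and leaving out 1 library lost that call in 4 of 24 fits. Of the 10 other ways of processing, 2 lost the call of CHEK1 in Δ133p53β5, 4 that in Δ133p53β10 (highest adjusted p 0.256) and 2 that of ATRIP. The list's median was from 0.06 to 0.41.

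Of 9 genes reported that write, erase or read DNA methylation, MBD2 rose in every clone except Δ133p53α1, and DNMT3A, named after its values were seen, fell in Δ133p53β5. Over all tested genes, from 1.90% (Δ133p53α8) to 4.82% (Δ133p53β10) rose, and 5.62% fell in Δ133p53β5. MBD2, which binds methylated CpG dinucleotides, had 56.1 ± 8.03 CPM (SD, n = 4) in control and from 81.5 ± 9.05 (Δ133p53α1) to 105 ± 12.6 (Δ133p53β5) in the clones. Its log2 fold change was 0.90 (SE 0.181, adjusted p = 0.00175) in Δ133p53β5 and 0.84 (SE 0.181, adjusted p = 0.00538) in Δ133p53α8. In Δ133p53α1 it was 0.54 (adjusted p = 0.0779). With the set MBD2 passed there too (adjusted p = 0.0293), as did 6.16% of all tested genes. The call in Δ133p53β10 (0.58, adjusted p = 0.0402) was lost in 10 of 24 fits that left out 1 library, at most to 0.138 without control replicate 3. DNMT3A, a DNA methyltransferase, fell from 30.8 ± 4.41 to 19.5 ± 1.80 CPM (SD, n = 4) in Δ133p53β5, by 0.66 on the log2 scale (SE 0.165, adjusted p = 0.0125). With the set, its log2 fold change was -0.53 (adjusted p = 0.0142). Without a filter on low counts the call of DNMT3A was lost (adjusted p = 0.0880). The list's median was -0.45 in Δ133p53α1, -0.37 in Δ133p53β5 and -0.57 in Δ133p53β10, the clones with 3 negative libraries. In Δ133p53α2 and Δ133p53α8 it was -0.08 and 0.00. With the set, the median was from -0.22 (Δ133p53α2) to 0.05 (Δ133p53α1).

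Between the isoforms, 2 more of the list genes reported, TDG and RAD1, passed in 1 of the fits, both higher in the Δ133p53β clones and both named after their values were seen. With the set, 10.2% of all tested genes passed this comparison, against 5.43% without it. By list, 2 of 23 base excision repair, 1 of 12 checkpoint, 1 of 9 DNA methylation, 1 of 9 direct reversal and 0 of 21 mismatch repair genes passed with the set. These calls do not set the list genes apart from other genes. TDG, a glycosylase that removes thymine from mismatches with guanine, passed with the set (0.71, adjusted p = 0.0314) and not without it (0.29, adjusted p = 0.653). RAD1, a subunit of the checkpoint clamp, did the same (0.42, adjusted p = 0.0184, against 0.36, adjusted p = 0.0846). With the set, leaving out 1 library lost the call of TDG in 8 of 24 fits (up to 0.0888, without Δ133p53α2 replicate 1) and that of RAD1 in 3 (up to 0.0717, without Δ133p53β10 replicate 1).

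**Figure D3:**
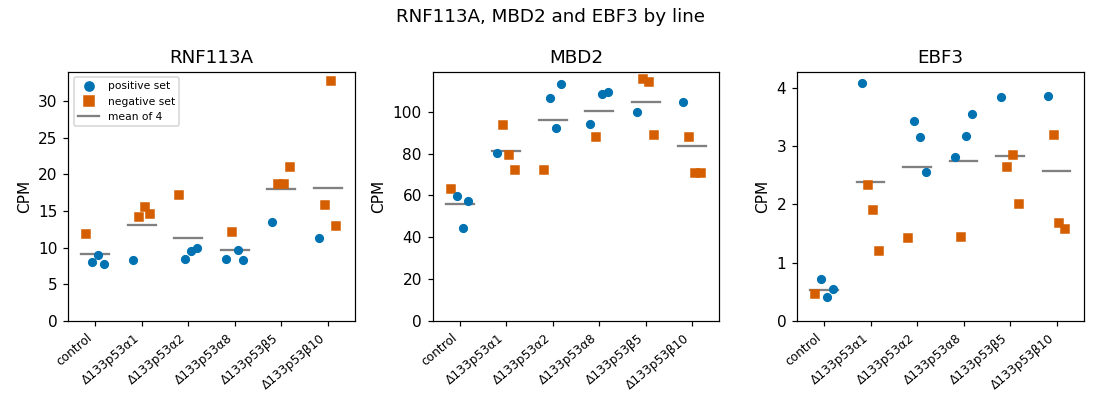
CPM of RNF113A, MBD2 and EBF3 in each library, by line, on linear axes from 0, with circles for the positive set, squares for the negative set and grey bars for means of 4 libraries. RNF113A is highest on average in the Δ133p53β clones, and MBD2 and EBF3 are above control in each of the 20 clone libraries. How many of all genes separate in this way was not counted.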

How the data were processed

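RNA from vector control cells and 5 clonal cell lines was made by the authors into poly(A) libraries that keep the strand. The authors aligned reads to GRCh38 (HISAT2) and counted genes of Ensembl (featureCounts). Whether counting used the strand, and how reads with several matches were treated, is not given in the sources used here. The deposited values are raw read counts, with totals from 21531599 to 25381731. Of the table's columns, 23 match a sample title and 1 was placed by its name.

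Tests used edgeR 4.0.16 in R 4.3.3 (TMM, filterByExpr by line, 17990 genes, 1 quasi-likelihood fit of 6 lines with 18 residual degrees of freedom, Benjamini-Hochberg adjustment over all genes). A gene passed at an adjusted p under 0.05. Shares of all tested genes, given in percent, used the adjusted p alone. Counts of genes past both thresholds also required a log2 fold change beyond 1.5 up or down. Counts of any difference among the clones used the adjusted p alone. CPM used TMM-scaled totals, and correlations used log2 CPM with a prior count of 2. Alternatives used DESeq2 1.42.0, limma 3.58.1 (voom), RLE factors, other filters, the lines compared alone, the replicate number as a block, the set of libraries as a term, other placements of 1 library and each library left out. Leaving out each library with the set in the fit was added after the data were seen.

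In simulated counts for Δ133p53α1 against control (17766 genes), 98.5% of 66 genes changed by 3 on the log2 scale were called, 47.8% of 67 at 1.5 and 0 of 67 at 0.5, in the fit of the lines alone. The simulated counts held no library sets, and only genes with a mean above 1 CPM were changed. These rates therefore need not hold for the real libraries. Libraries of 1 line differed beyond counting noise (36 pairs, lowest chi-square per degree of freedom 17.3). Nothing states that they came from separate cultures, so p-values measure only the spread between libraries. Reads carry no molecular identifiers, so intervals and floors (3 counts) cover counting error only.

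The members, lists and tests were chosen with earlier results of these data known. Named beside the members were list genes that passed in at least 3 of 5 comparisons with control or were among the 3 with the largest fold of those that passed, flanking protein-coding genes of MGMT, genes starting within 1000 bases on the other strand of a member, and the 5 genes most correlated with MGMT. Positions and main transcript lengths are from GENCODE on GRCh38, the build of the counts. Promoter windows are from RefSeq (GRCh38.p14), where 7 of 7 members matched. Some genes of the lists and some neighbors are not reported here, and list counts leave them out.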

Additional observations from a re-analysis of the deposited data

Results flagged for a closer look

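Of 72 groups of 4 libraries (the members and the named genes in each line), 10 had a highest or lowest library far from the other 3, and chance flags about 1 in 20. For MGMT these rest on single reads. The highest library stood at 0.0558 CPM in Δ133p53α1, 0.0572 in Δ133p53α2 and 0.0415 in Δ133p53β10 with the other 3 at 0, and in Δ133p53β5 the lowest was at 0 with the next at 0.0427. The other 6 libraries were each the only member of their library set in their line. They were the lowest ALKBH2 library of Δ133p53β5 (21.1 CPM, next 30.7), the highest MPG libraries of Δ133p53α2 (88.9, next 24.9) and of Δ133p53α8 (49.6, next 21.6), the highest MSH3 library of Δ133p53α1 (26.0, next 16.0), the lowest MSH6 library of Δ133p53α2 (118, next 197) and the highest RNF113A library of Δ133p53α2 (17.2, next 9.94). The part of the library set in each of these was not tested singly.

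By the test of the difference between the means of the Δ133p53β and the Δ133p53α clones (edgeR, Benjamini-Hochberg adjustment), RNF113A was higher in Δ133p53β by 0.68 on the log2 scale (adjusted p = 0.0369), and by 0.46 with the library set in the fit (adjusted p = 0.0308). Leaving out 1 library lost this call in 11 of 24 fits, and in 3 of 24 with the set. MPG was lower in Δ133p53β by -0.70 with the library set in the fit (adjusted p = 0.00201), and not without it. TDG (0.71, adjusted p = 0.0314) and RAD1 (0.42, adjusted p = 0.0184) were higher with the library set and did not pass without it. Over all tested genes, 5.43% passed this comparison without the set and 10.2% with it. All these p-values leave out the spread between clones.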

How the results depend on the processing

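The 6 members other than MGMT kept their side of the threshold in all 8 comparisons under DESeq2, limma voom, RLE factors, both filters, fits of only the lines compared, the replicate block and both other placements of the library with 2 clone names. With the library set as a term, 4 MPG results passed, and leaving out 1 library added 1 call, that of MSH6. Signs of differences that did not pass turned for 12 values with the set, 1 each under limma voom and the 2 other placements, and 28 of 1152 with a library left out. The replicate block gave 381, 432, 378, 713 and 706 genes past both thresholds (Δ133p53α1, Δ133p53α2, Δ133p53α8, Δ133p53β5, Δ133p53β10) against 442, 474, 427, 777 and 828 without it, and it lost calls of MBD2, CHEK1, ATRIP and AIMP2 in Δ133p53β10, of AIMP2 in Δ133p53α1 and of RNF113A in all 3 of its comparisons. The numbers do not pair libraries across lines (60 same-numbered pairs, median correlation -0.023, 22 over 0.1).

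Of 19 calls of the genes named beside the members, 9 were lost with only the lines compared, 9 without a filter, 8 with the replicate block, 5 without the library with 2 clone names and 1 with it in Δ133p53β10, 3 with the set, 1 with the 1 CPM filter, 1 under limma voom and 0 under DESeq2 or RLE. The calls of EBF3 in 5 clones held under all 10. NTHL1 in Δ133p53β10, above control without passing, passed below it (-0.87) with the set and without replicate 3 of that clone. MBD2 in Δ133p53α2 had an adjusted p of 0.141 with only the lines compared. The cause was not tested.

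Over all genes, the filter at a mean of 1 CPM left 14943 genes to test in place of 17990. It gave 264, 287, 267, 497 and 508 genes past both thresholds in the same order of clones. Between the isoforms it gave 127 (238 before), and between Δ133p53α8 and the other Δ133p53α clones 21 (38 before). The cause of these drops was not tested. Fits of only the lines compared gave 295 in Δ133p53α2, 429 in Δ133p53β10 and 24 for Δ133p53α8 against the other Δ133p53α clones, with fewer libraries. Among the 5 clones, by the adjusted p alone, DESeq2 gave 1692 and the set term 1383 against 676. For Δ133p53α8 against the other Δ133p53α clones, DESeq2 gave 59 past both thresholds. The cause of these differences was not tested. Leaving out 1 library gave 322 to 1568 in Δ133p53α1 (highest without its replicate 1), 581 to 1309 in Δ133p53β10 (highest without its replicate 1) and 25 to 45 for Δ133p53α8 against the other Δ133p53α clones (lowest without its replicate 1 or 4). Both replicates 1 were the only positive library of their line. At this depth, 1 or 0 MGMT reads cannot order the 4 clones at the limit of detection.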
